A study of Homo sapiens with 33 samples.

Results

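Annexins are proteins of 1 gene family that bind acidic membrane phospholipids, and this report gives the mRNA of 10 of them, ANXA1 to ANXA7, ANXA9, ANXA10 and ANXA11, in bladder cancer cells made resistant to a drug. The members were chosen by gene symbol, as the probe sets annotated to exactly 1 of these symbols. Each symbol had exactly 1 such probe set, so 10 of the 22465 genes measured are described. The family was picked because ANXA10 falls in drug, so every ANXA10 value below is a description with no test, and the 9 other genes were tested. ANXA8 and its copy ANXA8L1 share their probe sets with other symbols and were not analysed here.

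RT112 and RT4 are urothelial carcinoma cell lines that carry a fusion of FGFR3, a receptor tyrosine kinase, with TACC3. PD173074 (PD) inhibits the kinases of the FGFR family. The 33 arrays cover 11 conditions of 3 arrays each, 24 arrays of RT112 and 9 of RT4. RT112 was measured as untreated parental cells, as parental cells treated with PD for 24 h, and as 3 resistant derivatives, R1, R2 and R3, each kept in drug (+PD) or grown out of drug for 4 to 6 passages (-PD). RT4 was measured as untreated parental cells and as 1 resistant derivative, R1, in and out of drug. Per the study's methods the derivatives were kept in 1 µM PD, except RT112 R2, which was kept in 2 µM. The dose of the 24 h treatment of these arrays is not given in the sources used here, and RT4 was not measured after 24 h. RT112 R3 is described by the study as a mixture of cells with and without an HRAS mutation. Each derivative is 1 line, so the arrays of a derivative do not stand for separate selections, and the labels do not say whether the 3 arrays of a condition came from separate cultures. The p-values below therefore measure only the spread between these arrays, which may be technical.

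All annexins share a core of similar repeats that, in most members, holds the sites where calcium joins the protein to the membrane, and each has its own N-terminal tail. They are known for work at the inner face of membranes, in vesicle traffic, in membrane repair and in linking membrane to actin. ANXA10 and ANXA9 are the unusual members, with few of the family's calcium-binding sites left. ANXA10 is best known from the lining of the stomach and is also expressed in urothelium.

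The promoters of the members with the clearest opposite pattern are shown first. RefSeq windows (GRCh38.p14) of 250 bases before to 50 after a start site were matched for all 10 members, 14 windows in all. They are lower case, 5′ to 3′ on the gene's strand, with the letters CCGGAA or their reverse complement in capitals.
ANXA10, chr4:168092287-168092586, plus strand: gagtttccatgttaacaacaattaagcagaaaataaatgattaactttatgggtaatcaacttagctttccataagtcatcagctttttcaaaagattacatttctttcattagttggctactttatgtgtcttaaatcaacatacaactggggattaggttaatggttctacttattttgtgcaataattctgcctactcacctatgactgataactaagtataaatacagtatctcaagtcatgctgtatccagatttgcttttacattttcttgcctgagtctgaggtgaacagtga
ANXA3, chr4:78551520-78551819, plus strand: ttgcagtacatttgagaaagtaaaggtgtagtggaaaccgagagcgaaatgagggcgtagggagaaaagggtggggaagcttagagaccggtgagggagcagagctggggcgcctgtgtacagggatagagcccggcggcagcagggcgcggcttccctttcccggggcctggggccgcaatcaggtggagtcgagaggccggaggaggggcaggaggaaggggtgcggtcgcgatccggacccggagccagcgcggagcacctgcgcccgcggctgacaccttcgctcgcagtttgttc
ANXA4, the first of 2 start sites, chr2:69643558-69643857, plus strand: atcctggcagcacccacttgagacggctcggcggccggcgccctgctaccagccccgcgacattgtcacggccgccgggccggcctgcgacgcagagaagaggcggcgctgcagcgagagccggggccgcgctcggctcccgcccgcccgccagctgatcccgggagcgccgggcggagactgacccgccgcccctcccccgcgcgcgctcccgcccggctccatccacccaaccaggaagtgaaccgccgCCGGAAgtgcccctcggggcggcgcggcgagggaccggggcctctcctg
ANXA10 and ANXA3 both lie on chromosome 4, and their windows differ in composition. The ANXA10 window had 32.7% G and C and 0 CG pairs, while that of ANXA3 had 64.7% and 25 CG pairs, and that of ANXA4 78.0% and 44. Over the 14 windows the share of G and C ran from 32.7% to 78.0%, against a median of 58.7% over the 35116 windows of the RefSeq table, and only ANXA10 and ANXA1 had 0 CG pairs. Motifs were searched as plain letters on both strands. The ETS letters CCGGAA were in 3 windows, both of ANXA4 and 1 of ANXA11 (17.2% of all windows hold them). The AP-1 letters TGANTCA were in the ANXA2 window (7.71% of all windows) and the GATA letters AGATAA in that of ANXA7 (10.3%). The TEAD letters GGAATG (14% of all windows) and the forkhead letters TGTTTAC (3.42%) were in none of the 14, and the windows of ANXA10 and ANXA3 held none of the 5 motifs. No 2 of these matches overlap. A match is a description of letters, not of a site in use.

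Values are log2 signals, deposited after normalization (RMA). Each SE below is the moderated standard error of a limma fit, which draws the spread of a gene towards that of all genes. Where the arrays of a gene vary much, it is smaller than their SDs alone would give. Array medians ran from 4.86 to 5.08. Signals were not tested against background, and where a gene sits near those medians its difference from a higher level is a lower limit. The levels of different genes come from different probes and are not compared. The highest correlation between any pair of arrays was 0.9972, and no pair of arrays held identical values. RT112 R1 +PD replicate 3 (mean correlation of 0.977 with the other arrays of its condition) and parental RT4 replicate 1 (0.981) stood lowest. Of 16 urothelial markers measured, the keratins KRT7, KRT8, KRT18 and KRT19 and the adhesion protein CDH1 read 13.04 or more on every array. KRT20 (4.19 to 6.11) stayed low, and UPK3A read 4.37 to 4.87 in RT112 and 5.16 to 7.62 in RT4. KRT5, UPK1A and UPK2 read 7.08 to 13.25, 6.96 to 18.75 and 8.72 to 14.41 in RT112. In RT4 they read 6.84 to 7.54, 8.11 to 16.23 and 6.90 to 11.14. UPK1B read 15.61 to 17.09 in RT112 and 8.88 to 14.12 in RT4. Over all arrays GATA3 and EPCAM read 10.59 to 13.92, and PPARG, ELF3 and FOXA1 7.57 to 11.53. Of the fibroblast (8 of 9 measured), immune (4 of 5) and endothelial (4 of 4) markers, PTPRC, PDGFRA, PDGFRB, THY1, KDR and VWF read 5.19 or less on every array, while COL1A1, FAP (up to 5.35), DCN (up to 6.39), CD14 (up to 5.71), PECAM1 (up to 5.66) and CDH5 read more than that on some arrays. CD68, a lysosomal protein used as a macrophage marker, read 6.49 to 10.08 in RT112 and 6.79 to 8.29 in RT4. The mean level of the 8 fibroblast markers was 5.23 to 5.29 in parental RT112, 6.01 to 6.16 in R1 +PD and 5.94 to 6.08 in R2 +PD. LUM, which encodes a matrix proteoglycan, is the one of these markers that was high in RT112 (9.33 to 13.79). The part of this shift in the results below was not tested.

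ANXA10 was high in untreated cells of both lines and lower on every array of a culture in drug. In parental RT112 its log2 signal was 14.15, 13.81 and 13.83 (mean 13.93 ± 0.19, SD, n = 3). After 24 h in PD it was 8.85, 8.63 and 8.77. All 3 treated arrays lay below the untreated ones, by 5.18 on average (SE 0.11, a 36.3-fold lower signal). In R1 +PD the signals were 4.95, 5.16 and 5.03, and in R2 +PD they were 5.06, 4.87 and 5.57. These 6 arrays lay at or close to the array medians, so their differences from parental cells, -8.88 (SE 0.12) in R1 and -8.76 (SE 0.19) in R2, are lower limits in size. They correspond to signals at least 472-fold and 435-fold lower than in parental cells.

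Out of drug ANXA10 was far higher than in drug and still below the parental level in R1 and R2. R1 -PD read 12.34, 12.27 and 12.48, and R2 -PD 11.89, 12.81 and 12.78. Both conditions lay wholly below parental RT112, by 1.57 (SE 0.12) in R1 and 1.44 (SE 0.26) in R2, and wholly above the same derivative in drug, by 7.32 (SE 0.10) in R1 and 7.33 (SE 0.29) in R2.

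In R3, the derivative with mutant HRAS, ANXA10 stayed high. R3 +PD read 13.19, 12.92 and 11.48 (mean 12.53 ± 0.92, SD, n = 3), and R3 -PD 14.05, 13.81 and 14.19. All 3 arrays in drug were below those out of drug and below parental cells, by 1.49 (SE 0.43) and 1.40 (SE 0.44), and R3 -PD overlapped parental cells with a difference of 0.09 (SE 0.13). R3 +PD replicate 3 was the lowest of its condition, and without it the differences were -0.96 and -0.88. R1 +PD and R2 +PD lay below R3 +PD with no overlap, at differences of -7.48 (SE 0.45) and -7.36 (SE 0.46).

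In RT4 too, ANXA10 was highest in parental cells and lowest in drug. Parental RT4 read 14.15, 13.12 and 13.48, R1 -PD 12.03, 12.71 and 12.59, and R1 +PD 9.68, 10.22 and 9.84. The 3 conditions did not overlap. In drug the signal differed from parental RT4 by -3.67 (SE 0.27, 12.7-fold lower) and from R1 -PD by -2.53 (SE 0.21), and R1 -PD differed from parental RT4 by -1.14 (SE 0.29). The fall in R1 +PD was larger in RT112 than in RT4 by 5.21 (SE 0.33), although the RT112 value is a limit. Ordered by mean over RT112, ANXA10 ran from R3 -PD (14.02) and parental (13.93), which overlapped, to R3 +PD (12.53), R2 -PD (12.49) and R1 -PD (12.36), each overlapping the next, and then to parental +PD 24 h (8.75), R2 +PD (5.17) and R1 +PD (5.05), of which the last pair overlapped.

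**Figure D1:**
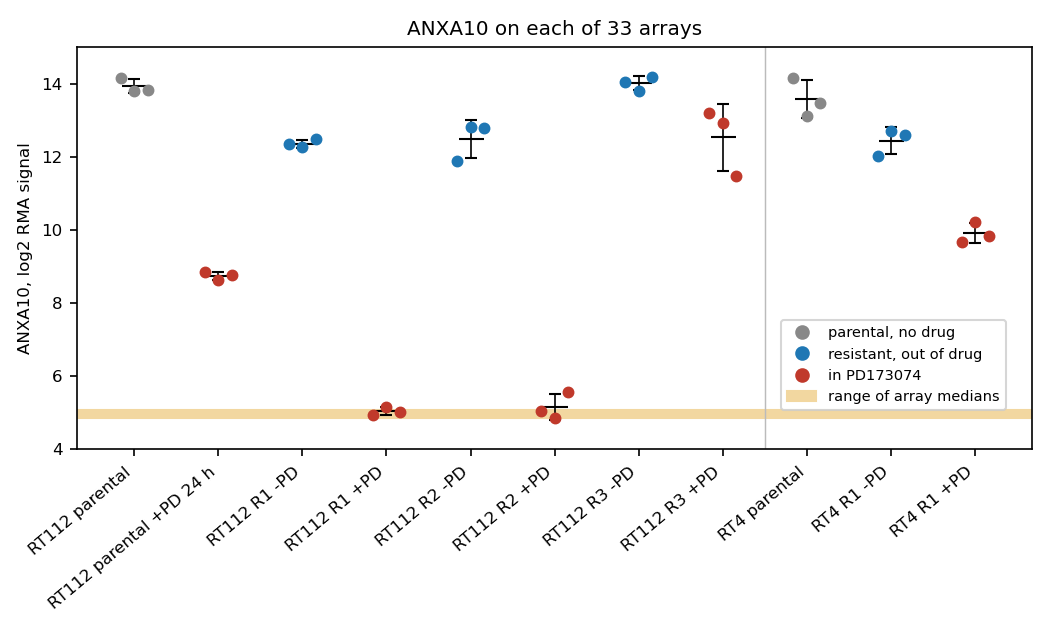
ANXA10 on each of the 33 arrays: log2 RMA signal (vertical axis) by condition (horizontal axis), 1 point per array, with the mean and SD of 3 arrays in black and the range of the array medians (4.86 to 5.08) shaded. R1 +PD and R2 +PD of RT112 sit at the medians, R3 +PD stays at 11.48 to 13.19, and RT4 R1 +PD lies at 9.68 to 10.22, below both other RT4 conditions.

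Each of the other 9 annexins was tested in each pair of conditions with limma, 3 arrays against 3, and called where p adjusted by the Benjamini-Hochberg method over all 22465 genes was under 0.01. All adjusted p-values below are from this test. Against parental RT112, 5 of the 9 were called after 24 h in PD, when 24.5% of all genes were, and 3 in R1 +PD (11.7% of all genes), 4 in R2 +PD (18.0%) and 0 in R3 +PD (1.95%). Against parental RT4, 3 were called in R1 +PD (5.86% of all genes). The choice of the family rests on these contrasts, so nothing is read from those counts. The median difference of the 9 from the parental line was 0.28 after 24 h, 0.35 in R1 +PD, 0.24 in R2 +PD, 0.10 in R3 +PD and 0.82 in RT4 R1 +PD, and that of all genes lay between -0.04 and 0.03. Of 153 tests of the 9 over 17 comparisons 28 were called (18.3%, and 7.96% over all genes), 25 of them with a positive and 3, all of ANXA7, with a negative difference (48.8% of the calls over all genes were positive). The 25 include 4 between the parental lines and 1 difference of effects. The comparisons with 1 parental line share its arrays and are not independent. The totals over 17 comparisons include the contrasts on which the choice of the family rests, and count the same genes repeatedly. Nothing is read from them either.

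**Figure D2:**
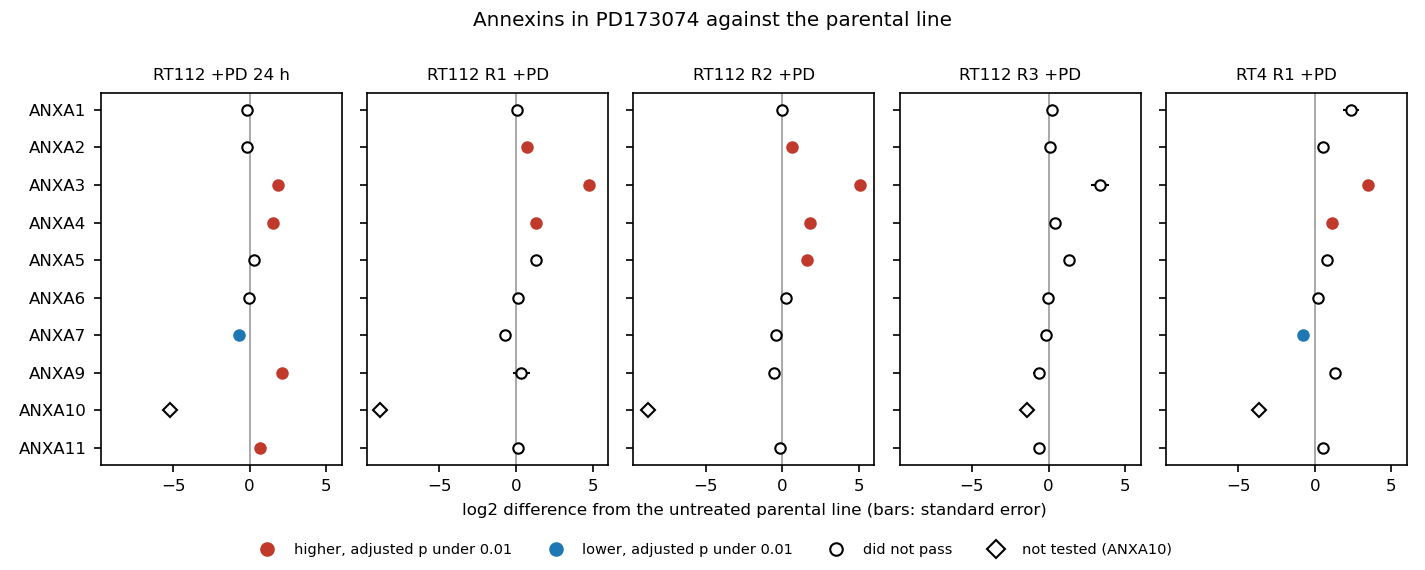
Difference in log2 signal between each culture in PD173074 and its untreated parental line (horizontal axis, bars show limma's moderated standard error) for the 10 annexins (vertical axis), 1 panel per culture. Filled points passed limma's adjusted p under 0.01, red for higher and blue for lower, open circles did not, and ANXA10 (diamonds) was not tested. ANXA3 is the rightmost point in R1, R2, R3 and RT4 R1 and ANXA10 the leftmost in every panel.

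ANXA3, a short-tailed annexin first known for its abundance in neutrophils, was higher in drug in both cell lines. In parental RT112 it read 7.69, 8.11 and 8.14, and after 24 h in PD 9.78, 10.08 and 9.72. In R1 +PD it read 12.73, 12.57 and 12.95, and in R2 +PD 12.99, 13.45 and 12.79. No treated array reached down to the parental level. ANXA3 rose by 1.88 after 24 h (SE 0.15, adjusted p = 1.75e-04), by 4.77 in R1 (SE 0.16, 27.3-fold, adjusted p = 9.62e-05) and by 5.10 in R2 (SE 0.20, 34.2-fold, adjusted p = 1.59e-05). It passed on leaving out any 1 array in these 3 comparisons, but after 24 h not in 1 fit over all RT112 arrays (adjusted p = 0.0183). In RT4 it read 8.35, 7.84 and 8.08 in parental cells and 11.67, 11.81 and 11.23 in R1 +PD, again without overlap, and rose by 3.48 (SE 0.19, 11.2-fold, adjusted p = 1.51e-04).

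In R3 +PD the ANXA3 signals were spread, at 12.49, 11.51 and 9.97. All 3 were above parental RT112, but the difference of 3.34 (SE 0.60, adjusted p = 0.0231) did not pass. Replicate 3, which was also the lowest for ANXA10, was the lowest here, and without it the difference was 4.02 (adjusted p = 0.00306). R1 +PD and R2 +PD were above R3 +PD, R1 at a difference of 1.43 (SE 0.62, adjusted p = 0.174) and R2 at 1.75 (SE 0.60, adjusted p = 0.112), and neither passed.

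Out of drug ANXA3 lay between the parental level and that in drug in R1, R2 and RT4 R1, but not in R3. R1 -PD read 10.16, 9.48 and 9.08, R2 -PD 11.70, 9.57 and 9.06, and RT4 R1 -PD 11.04, 9.99 and 9.77. All 9 arrays were above their parental line and below the same derivative in drug. R3 -PD read 8.65, 7.39 and 8.87, all below R3 +PD, and overlapped parental RT112 with no call. The differences from parental cells, 1.59 in R1 (SE 0.27, adjusted p = 0.0175), 2.13 in R2 (SE 0.64, adjusted p = 0.0632) and 2.18 in RT4 R1 (SE 0.33, adjusted p = 0.0192), did not pass. Between R1 +PD and R1 -PD the difference of 3.18 passed (SE 0.28, adjusted p = 0.00172), though not without R1 -PD replicate 2 or 3 or R1 +PD replicate 1 (adjusted p up to 0.0138) or with the replicate number as a block (0.0103). In R2 the difference of 2.97 (SE 0.65, adjusted p = 0.0186) and in RT4 that of 1.30 (SE 0.33, adjusted p = 0.0311) did not pass. R2 -PD replicate 1 and RT4 R1 -PD replicate 1 were the highest of their conditions, and without them the differences were 3.76 (adjusted p = 0.00139) and 1.69 (adjusted p = 0.00286).

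ANXA4, known from epithelia, where it binds the inner face of the plasma membrane, rose in drug in R1, R2 and RT4 R1 and was near the parental level out of drug. In parental RT112 it read 9.65, 9.85 and 9.79, after 24 h 11.20, 11.33 and 11.22, in R1 +PD 11.19, 11.36 and 10.77, and in R2 +PD 11.73, 11.77 and 11.29. The lowest of the 9 treated arrays (10.77) was above the highest of the 3 parental arrays (9.85). ANXA4 rose by 1.49 after 24 h (SE 0.08, adjusted p = 5.91e-05), by 1.34 in R1 (SE 0.16, adjusted p = 0.00295) and by 1.83 in R2 (SE 0.14, adjusted p = 1.97e-04). Out of drug R1 read 9.79 ± 0.07, R2 9.97 ± 0.08 and R3 9.88 ± 0.12 (mean and SD of 3 arrays), within 0.21 of parental cells, and no difference passed. In drug against out of drug it rose by 1.32 in R1 (SE 0.16, adjusted p = 0.00468) and 1.62 in R2 (SE 0.14, adjusted p = 0.00153). In RT4 it was also highest in R1 +PD, at 11.15, 11.09 and 10.87 in drug, 9.89, 9.78 and 9.78 out of drug and 9.72, 10.03 and 9.98 in parental cells. There ANXA4 rose by 1.13 over parental cells (SE 0.13, adjusted p = 0.00224) and by 1.22 over R1 -PD (SE 0.09, adjusted p = 2.70e-04).

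In R3 +PD ANXA4 read 9.87, 10.07 and 10.69 and was above parental cells by 0.45 (SE 0.21, adjusted p = 0.231). The lead of R2 +PD over R3 +PD, 1.39 (SE 0.24, adjusted p = 0.0172), did not pass with all arrays and passed without R3 +PD replicate 3 (1.63, adjusted p = 0.00557). R3 +PD replicate 3 was the highest of its condition for ANXA4 and the lowest for ANXA3 and ANXA10. Several ANXA4 calls were lost on leaving out 1 array. In R1 +PD it did not pass without any 1 parental array or R1 +PD replicate 1 (adjusted p up to 0.0194), and between R1 +PD and R1 -PD it did not pass without any 1 array except R1 +PD replicate 3 (up to 0.0302). Between R2 +PD and R2 -PD it did not pass without R2 -PD replicate 3 or R2 +PD replicate 1 (up to 0.0119), nor in RT4 R1 +PD against parental cells without R1 +PD replicate 1 or 2 (up to 0.0150).

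ANXA2, which joins S100A10 in a complex at the cell surface that binds plasminogen and its activator, was higher in R1 and R2 in drug. It read 15.55, 15.77 and 15.83 in parental RT112, 16.56, 16.32 and 16.38 in R1 +PD and 16.39, 16.50 and 16.23 in R2 +PD. The 6 arrays in drug were all above the parental ones. ANXA2 rose by 0.70 in R1 (SE 0.11, adjusted p = 0.00682) and by 0.66 in R2 (SE 0.11, adjusted p = 0.00434), and by 0.59 in R2 +PD against R2 -PD (SE 0.09, adjusted p = 0.00634). The same comparison in R1 gave 0.70 (SE 0.11, adjusted p = 0.0104) and did not pass. After 24 h the difference was -0.19 (adjusted p = 0.297), in R3 +PD 0.10 (adjusted p = 0.645) and in RT4 R1 +PD 0.50 (SE 0.24, adjusted p = 0.243). None of the 3 calls held without any 1 array except replicate 3 of the derivative in drug (adjusted p up to 0.0306), and processed pseudogenes nearly identical to ANXA2 may add to its signal.

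ANXA5, which binds phosphatidylserine and is used to stain dying cells, was higher in R2 in drug and in RT4 R1 out of drug. It read 12.89, 12.60 and 12.68 in parental RT112 and 14.20, 14.43 and 14.40 in R2 +PD, without overlap, and rose by 1.62 in R2 (SE 0.11, 3.07-fold, adjusted p = 1.14e-04). In R1 +PD it read 13.92, 13.61 and 14.64, and in R3 +PD 14.57, 14.11 and 13.52. These 6 arrays were also all above parental cells. The differences of 1.33 in R1 (SE 0.27, adjusted p = 0.0167) and 1.34 in R3 (SE 0.26, adjusted p = 0.0282) did not pass, and passed without replicate 3 of R1 +PD (1.04, adjusted p = 0.00287) or of R3 +PD (1.62, adjusted p = 0.00549). After 24 h the difference was 0.28 (adjusted p = 0.171).

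Out of drug the mean of ANXA5 was above that of the parental line in every derivative, with 1 call. The level was above parental cells by 1.13 in R2 -PD (SE 0.33, adjusted p = 0.0592) and by 0.74 in R3 -PD (SE 0.14, adjusted p = 0.0212), neither of which passed, and by 0.39 in R1 -PD (adjusted p = 0.295). R3 -PD passed without its replicate 2 (0.89, adjusted p = 0.00882). In RT4 R1 -PD ANXA5 read 12.46, 12.70 and 12.41, all above the 11.48, 11.12 and 10.99 of parental RT4, and was higher by 1.33 (SE 0.15, adjusted p = 0.00838). This call was lost without any 1 array except parental replicate 1 (adjusted p up to 0.0442). RT4 R1 +PD lay between the others at 12.01, 12.09 and 11.94, above parental RT4 by 0.82 (SE 0.14, adjusted p = 0.0111) and below R1 -PD by 0.51 (SE 0.10, adjusted p = 0.0104), and passed the first without parental replicate 1 (0.96, adjusted p = 0.00124). R2 +PD exceeded R2 -PD by 0.49 (adjusted p = 0.382), or by 0.90 without R2 -PD replicate 1 (adjusted p = 0.00820).

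ANXA9 and ANXA11 were higher after 24 h in drug and were not called in the RT112 derivatives against parental cells. ANXA9, which lacks the calcium sites of the family, read 10.65, 11.30 and 11.34 in parental RT112 and 13.06, 13.12 and 13.39 after 24 h. It rose by 2.09 (SE 0.20, 4.27-fold, adjusted p = 2.93e-04), with no overlap. In R1, R2 and R3 in drug it was 11.45 ± 1.09, 10.53 ± 0.12 and 10.48 ± 0.72 (SD, n = 3 each), which differed from parental cells by 0.35 (adjusted p = 0.715), -0.56 (adjusted p = 0.0630) and -0.62 (adjusted p = 0.348). The R2 value passed without parental replicate 1 (-0.79, adjusted p = 0.00446). In RT4 ANXA9 was 8.77, 8.83 and 9.17 in parental cells and 10.21, 10.68 and 9.76 in R1 +PD, all higher, but the difference of 1.29 (SE 0.24, adjusted p = 0.0137) did not pass.

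ANXA11, which carries a long tail and takes part in the last step of cell division and in RNA granule transport, read 8.70, 9.03 and 9.11 in parental RT112 and 9.59, 9.65 and 9.64 after 24 h. It rose by 0.68 (SE 0.11, adjusted p = 0.00332). In RT4 R1 it read 8.49, 8.49 and 8.28 in drug and 7.84, 8.03 and 7.78 out of drug, and rose by 0.54 (SE 0.10, adjusted p = 0.00925). In each pair the groups did not overlap. The first call was lost without parental replicate 2 or any 1 treated array (adjusted p up to 0.0135) and in 1 fit over all RT112 arrays (0.0305), and the second without any 1 array (up to 0.0376). In R3 +PD the level was 0.65 below parental RT112 (SE 0.14, adjusted p = 0.0399), and in R1 -PD, R2 -PD and R3 -PD it was 0.64, 0.67 and 0.52 below (adjusted p = 0.149, 0.0146 and 0.0317), none of which passed.

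ANXA7, an annexin known for calcium-dependent membrane fusion, was the tested member called lower. It read 12.21, 12.19 and 12.31 in parental RT112 and 11.63, 11.45 and 11.50 after 24 h. It fell by 0.71 (SE 0.08, adjusted p = 5.12e-04), with no overlap, and passed on leaving out any 1 array. In R1 +PD it read 11.32, 11.30 and 11.86, also all below parental cells, and the difference of -0.74 (SE 0.16, adjusted p = 0.0232) did not pass with replicate 3 and passed without it (-0.93, adjusted p = 6.17e-04). In R2 +PD and R3 +PD the differences were -0.39 (adjusted p = 0.0476) and -0.19 (adjusted p = 0.227). In RT4 it read 11.88, 11.93 and 11.82 in parental cells, 11.73, 11.75 and 11.63 out of drug and 10.90, 11.31 and 11.05 in drug. The level in drug fell below both, with a difference of -0.79 from parental cells (SE 0.12, adjusted p = 0.00745) and of -0.62 from R1 -PD (SE 0.11, adjusted p = 0.00893). The first was lost without any 1 array except parental replicate 1 (adjusted p up to 0.0441) and the second without any 1 array except R1 +PD replicate 2 (up to 0.0401).

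ANXA1, a target of glucocorticoids that signals through formyl peptide receptors, was high in RT112 and moved little there. Its mean was 13.65 in parental RT112 and between 13.47 and 14.05 in the other 7 conditions, and no difference within RT112 passed. In RT4 the parental arrays read 9.61, 11.67 and 11.45, against 13.14, 12.96 and 12.82 in R1 -PD and 13.19, 13.39 and 13.27 in R1 +PD. Both R1 conditions lay above all parental arrays. Parental replicate 1 stood far below the other 2, and with it neither the difference of 2.37 in drug (SE 0.50, adjusted p = 0.0235) nor that of 2.06 out of drug (SE 0.51, adjusted p = 0.0742) passed. Without that array they were 1.72 (adjusted p = 2.62e-04) and 1.41 (adjusted p = 0.00494). ANXA6, the largest annexin, which carries more core repeats than the others, read 4.57 to 5.17 over the 33 arrays, at the array medians, and was called in none of the 17 comparisons. In 1 fit over all RT112 arrays it passed in R2 +PD against R2 -PD (0.29, adjusted p = 0.00458). Its difference from background was not tested.

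**Figure D3:**
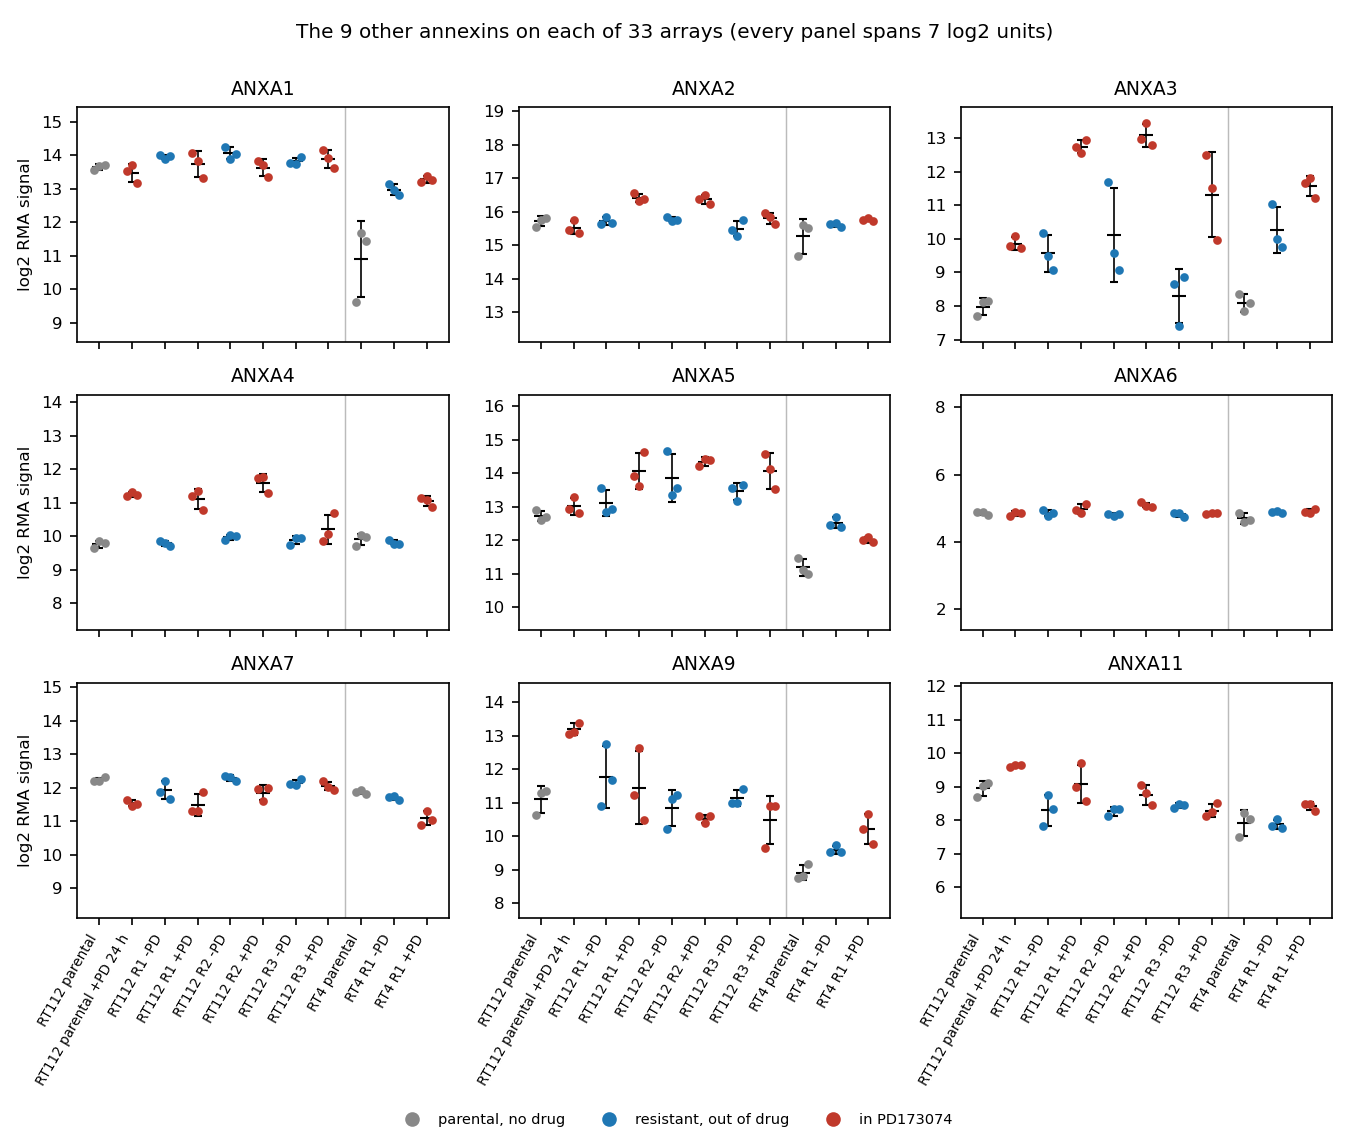
The other 9 annexins on each of the 33 arrays, 1 panel per gene: log2 RMA signal (vertical axis, 7 log2 units in every panel) by condition (horizontal axis), 1 point per array, with the mean and SD of 3 arrays in black. ANXA3 covers 7.39 to 13.45 and is highest in drug, ANXA4 is higher in drug than out of drug in R1, R2 and RT4 R1, and ANXA6 stays at 4.57 to 5.17.

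Out of drug, no tested annexin was called in R1, R2 or R3 against parental RT112, where 1.45%, 6.87% and 3.18% of all genes were. At an unadjusted p under 0.05 the counts were 3, 5 and 2 of 9, beside 22.6%, 33.5% and 28.3% of all genes. RT4 R1 -PD had 1 call (ANXA5) with 0.966% of all genes. Between drug and no drug within a derivative 2 of 9 were called in R1 (5.68% of all genes), 2 in R2 (10.2%), 0 in R3 (0%) and 3 in RT4 R1 (10.5%). In R3 no gene at all was called between drug and no drug, and 1 annexin, ANXA3, had an unadjusted p under 0.05, as did 7.87% of all genes (difference 3.02, adjusted p = 0.302). R1 +PD and R2 +PD against R3 +PD gave 0 calls of 9 each (4.77% and 3.15% of all genes), with 4 and 5 at an unadjusted p under 0.05, which 33.0% and 28.9% of all genes had. The count in R3 +PD against parental cells, 0 of 9, stood beside 3 at an unadjusted p under 0.05 (ANXA3, ANXA5 and ANXA11, beside 27.7% of all genes). Without R3 +PD replicate 3 that count was 2 of 9, for which the share of all genes is not given.

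The parental lines differed in 4 of the 9 (18.8% of all genes), each higher in RT112 than in RT4. ANXA1 was higher by 2.74 (SE 0.50, adjusted p = 0.00627), ANXA9 by 2.17 (SE 0.21, adjusted p = 3.89e-04), ANXA5 by 1.53 (SE 0.15, adjusted p = 4.28e-04) and ANXA11 by 1.02 (SE 0.21, adjusted p = 0.00945). Groups did not overlap for any of the 4. ANXA10, at 13.93 and 13.58, overlapped between the lines, and ANXA3 and ANXA4 differed by -0.11 (adjusted p = 0.720) and -0.15 (adjusted p = 0.423). The ANXA1 call was lost without any 1 RT112 array or RT4 replicate 3 (adjusted p up to 0.0272), and that of ANXA11 without any 1 array except RT4 replicate 1 (up to 0.0416). The lines also differ in growth medium, which cannot be told apart from the line.

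The effect of R1 in drug was compared between the lines in 1 fit of 12 arrays. ANXA3 was the one called of 9 (7.76% of all genes), with a rise of 4.77 in RT112 and 3.48 in RT4, a difference of 1.29 (SE 0.27, adjusted p = 0.00822). For ANXA4 the rises were 1.34 and 1.13, and their difference of 0.22 (SE 0.21, adjusted p = 0.556) did not pass. ANXA1 differed by -2.30 (SE 0.61, adjusted p = 0.0266), or by -1.65 without parental RT4 replicate 1 (adjusted p = 0.00181). The ANXA3 call was lost without any 1 of the 12 arrays except parental RT4 replicate 2 (adjusted p up to 0.0212), and in 1 fit with all other arrays (0.251).

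Proteins that work with annexins were followed in a list of 19, of which 17 were measured. Against the parental line, 5 of the 17 were called after 24 h (3 higher, 2 lower), beside 24.5% of all genes. In R1 +PD 7 were called (4 higher, 3 lower, beside 11.7% of all genes) and in R2 +PD 9 (6 higher, 3 lower, beside 18.0%). In R3 +PD 3 were called (1 higher, 2 lower, beside 1.95%) and in RT4 R1 +PD 2, both higher (beside 5.86%). The median difference of the 17 was between -0.06 and 0.26 in these 5 comparisons. PLA2G4A, the phospholipase A2 that releases arachidonic acid and that annexins are known to hinder, fell the furthest of the partners after 24 h and in R1 and R2 +PD. Its mean was 8.65 in parental RT112, 7.28 after 24 h, 5.32 in R1 +PD, 6.28 in R2 +PD and 7.75 in R3 +PD. The level in R1 +PD was close to the array medians, so the fall there is a lower limit. The differences from parental cells were -1.37 after 24 h (adjusted p = 4.08e-04), -3.32 for R1 +PD (adjusted p = 1.04e-04), -2.36 for R2 +PD (adjusted p = 1.24e-04) and -0.89 in R3 (adjusted p = 0.00950), and all 4 passed. In RT4 R1 +PD it differed by 0.47 (adjusted p = 0.290). The R3 call of PLA2G4A was lost without any 1 array (adjusted p up to 0.0489), and the count of 3 in R3 fell to 0 without parental replicate 1, 2 or 3 or R3 +PD replicate 2 and to 1 without R3 +PD replicate 1. The count of 9 in R2 was 5 without parental replicate 2, and that of 2 in RT4 was 1 without parental replicate 2 or any 1 array of R1 +PD.

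PLAT, the tissue plasminogen activator bound by ANXA2, and S100A4, a small calcium-binding partner of ANXA2, fell in R1 and R2 in drug. PLAT fell by 2.27 in R1 +PD (adjusted p = 4.03e-04) and by 1.99 in R2 +PD (adjusted p = 1.11e-04), and in R3 +PD the difference was 0.86, with the mean above parental cells (adjusted p = 0.0983). S100A4 fell by 1.76, 1.71 and 1.38 in R1, R2 and R3 +PD (adjusted p = 1.67e-04, 1.11e-04 and 0.00429). Its means of 5.19 in R1 +PD and 5.25 in R2 +PD were close to the array medians, so those falls are lower limits. It was also lower in R1, R2 and R3 out of drug (adjusted p = 9.43e-04, 0.00156 and 0.00475), calls lost without parental replicate 2 in all 3 (up to 0.0225), without parental replicate 3 in R2 and R3, and without parental replicate 1 or R3 -PD replicate 1 or 3 in R3 (up to 0.0259). S100A10, the partner of ANXA2 in its surface complex, rose by 0.83 in R1 +PD (adjusted p = 0.00415), 0.70 in R2 +PD (adjusted p = 0.00123) and 1.66 in RT4 R1 +PD (adjusted p = 1.72e-04). TMEM30A, a subunit of flippases that keep phosphatidylserine on the inner side of the membrane, rose in all 5 cultures in drug, by 0.90 after 24 h (adjusted p = 1.35e-04), 0.99 for R1 (adjusted p = 0.00326), 1.07 for R2 (adjusted p = 0.00109), 0.68 in R3 (adjusted p = 0.00685) and 0.74 in RT4 R1 (adjusted p = 0.00349). Some partners were also above the parental line out of drug. TMEM30A was higher in R2 -PD by 0.64 (adjusted p = 0.00561) and S100A10 in RT4 R1 -PD by 1.01 (adjusted p = 0.00618). PLA2G4A was higher in R1 -PD by 0.98 (adjusted p = 0.00367) and PLAT in R3 -PD by 1.60 (adjusted p = 0.00338). Each of these calls was lost without some single arrays (up to 0.0365). FPR3, a formyl peptide receptor, at 4.96 in parental RT112 and so at the array medians, rose by 1.20 in R1 +PD (adjusted p = 0.00950) and by 1.04 in R2 +PD (adjusted p = 0.00371), which are lower limits. In RT4 R1 +PD its difference from parental cells was larger, 2.49, but did not pass (adjusted p = 0.0839). Without parental RT4 replicate 3 it was 3.45 (adjusted p = 0.00389). In RT112 R1 the calls of S100A10, TMEM30A, FPR3 and ANO6, a lipid scramblase, were lost without any 1 parental array or R1 +PD replicate 1 (adjusted p up to 0.0410), which brought the count of 7 to 3, and that of FPR3 in R2 without parental replicate 2 or R2 +PD replicate 1 (up to 0.0137). S100A10 (0.0124) and ANO6 (0.0105) were also lost in R1 without R1 +PD replicate 2, and FPR3 without R1 +PD replicate 3 (0.0129). The FPR3 call in R1 was lost too with every transcript cluster, quantile normalization again or median centring (up to 0.0128). TMEM30A was lost in R3 without any 1 array except replicate 3 in drug (up to 0.0434) and in RT4 R1 without any 1 array except parental replicate 1 (up to 0.0206). S100A4 was lost in R3 without any 1 parental array or R3 +PD replicate 2 (up to 0.0316).

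The 79 genes whose SD over the RT112 arrays was at least 0.5 of that of ANXA10 were searched for the most similar course over the 24 RT112 arrays, by Pearson correlation. The arrays fall into few conditions and share them, so the correlations are descriptions. The 5 highest were DHRS9, a retinol dehydrogenase (0.938), FABP4, a fatty acid binding protein (0.934), TMPRSS4, a membrane serine protease (0.929), DUSP6, a phosphatase of ERK kinases (0.929), and MYEOV (0.900). Over the 9 RT4 arrays the same genes had 0.930, 0.222, 0.952, 0.937 and 0.490. The mean of DUSP6 was 11.96 in parental RT112, 5.91 after 24 h, 5.62 in R1 +PD, 5.53 in R2 +PD and 8.95 in R3 +PD, and 12.28, 11.39 and 8.25 in RT4 parental, R1 -PD and R1 +PD. FABP4 went from 16.94 in parental RT112 to 6.87 in R1 +PD, but in RT4 it was 13.78, 16.25 and 13.47 in the same 3 conditions. MYEOV stood near the array medians throughout RT4.

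The 3 lowest correlations were those of ALPP (-0.976) and ALPG (-0.965), alkaline phosphatases whose sequences are near copies so that their signals may mix, and GABRP, a subunit of GABA receptors (-0.964). ALPP was 7.94 in parental RT112, 14.79 in R1 +PD and 13.48 in R2 +PD. GABRP was 5.36, 13.22 and 13.30 in the same conditions. In RT4 the correlations were -0.247, -0.055 and -0.539. Within the family, ANXA4 (-0.913 over RT112 and -0.919 over RT4) and ANXA3 (-0.799 and -0.893) ran most against ANXA10 and ANXA7 most with it (0.708 and 0.947).

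**Figure D4:**
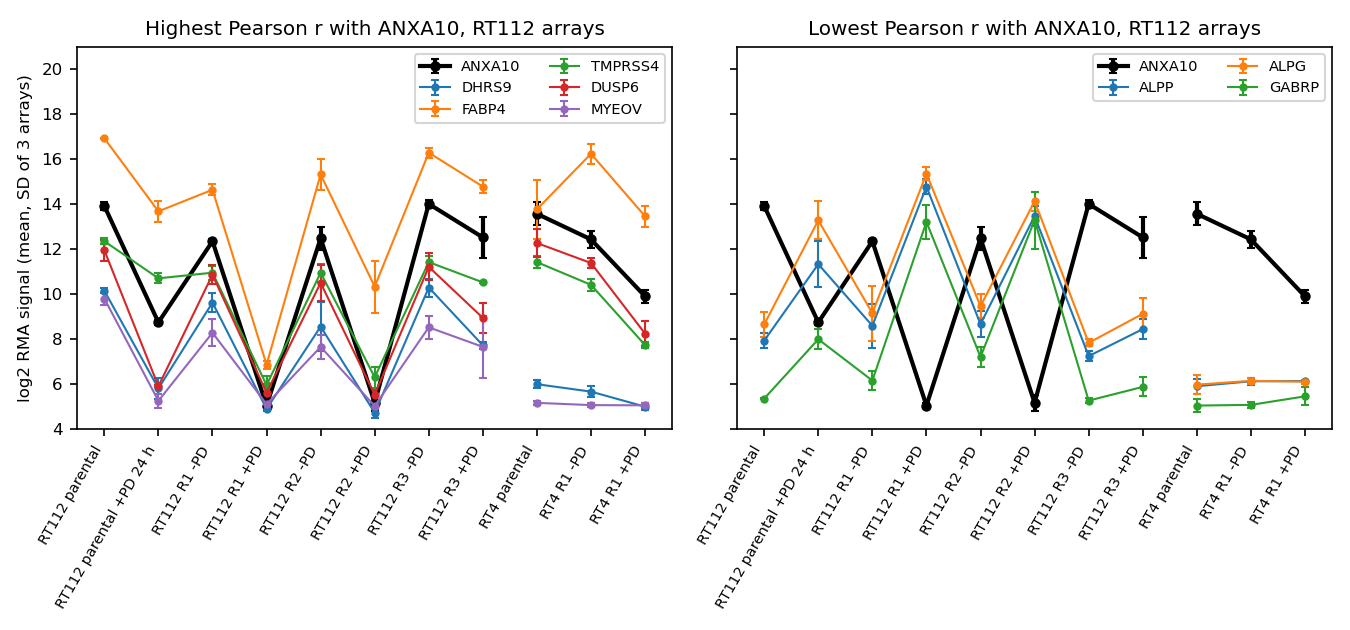
Mean log2 RMA signal of 3 arrays with SD (vertical axis) by condition (horizontal axis) for ANXA10 (black) and, left, the 5 genes with the highest and, right, the 3 with the lowest Pearson correlation with it over 24 RT112 arrays. DUSP6 and TMPRSS4 are, like ANXA10, lower in drug in both lines. After 24 h TMPRSS4 is at 10.71, near its mean in R3 +PD (10.53), whereas ANXA10 is at 8.75 against 12.53. ALPP, ALPG and GABRP mirror ANXA10 in RT112 and stay between 5.05 and 6.15 in RT4.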

How the data were processed

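RNA was measured on 33 Affymetrix Human Transcriptome Array 2.0 arrays, 3 per condition. The authors deposited log2 signals made with RMA, 1 array per column, not pooled. The labels name Affymetrix Expression Console and the methods rma_sketch in Affymetrix Power Tools. The table has 70523 probe sets, and 23781 of its 67528 transcript clusters are annotated to a single symbol. For the 479 symbols with several, the brightest was kept, giving 22465 genes. No background call is given, and the 3 arrays per condition limit the precision. Conditions were tested in pairs with limma 3.58.1 (R 4.3.3), and p-values were adjusted by Benjamini-Hochberg over all genes at a threshold of 0.01, as the methods state. The procedure was tested on simulated data. Alternatives were 1 fit over all arrays of the cell line, every transcript cluster, a prior with trend and robust fitting (statmod 1.5.0), leaving out the genes dimmer than the 30th percentile, median centring, repeated quantile normalization, a replicate block, a t-test adjusted over all genes at 0.01 and leaving out each array. For partner genes these were added after seeing the data.

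Members and lists were chosen with earlier results of these data known, and values of some annexins in the study's tables had been seen. All 10 members are named. Partners named are up to 4 with the largest change past the threshold in each derivative in drug. Similar genes are the 5 highest and 3 lowest correlations with ANXA10 among genes whose SD over RT112 is at least 0.5 of that of ANXA10. Proteins were not analysed here. Replicate numbers were checked for pairing. Correlations of same-numbered deviations ran from -0.44 to 0.38, and all 3 passed 0.1 in 1 of 16 comparisons.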

Additional observations from a re-analysis of the deposited data

Results flagged for a closer look

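The effect of R1 in drug differed between RT112 and RT4, in the test of the difference itself, for ANXA3 and for 5 partner genes. ANXA3 rose by 4.77 in RT112 and 3.48 in RT4, a difference of 1.29 on the log2 scale (limma, adjusted p = 0.00822). S100A10 rose by 0.83 in RT112 and 1.66 in RT4, a difference of -0.82 (adjusted p = 0.00315). S100A4, PLA2G4A and PLAT fell in RT112, with changes of -1.76 (S100A4), -3.32 (PLA2G4A) and -2.27 (PLAT), and in RT4 differed by -0.51, 0.47 and 0.10 without passing the test. The differences between the lines were -1.25 for S100A4 (adjusted p = 0.00736), -3.79 for PLA2G4A (adjusted p = 2.45e-05) and -2.37 for PLAT (adjusted p = 1.24e-05). The call of ANXA3 was lost without any 1 array except parental RT4 replicate 2 (adjusted p up to 0.0212) and in 1 fit over all arrays (0.251), that of S100A4 without 9 of the 12 arrays (up to 0.0223) and that of S100A10 without parental RT112 replicate 1 or 3 or RT4 R1 +PD replicate 1 or 2 (up to 0.0110). S100A4 lay close to the array medians in drug in both lines (5.19 and 5.21) and at 5.72 in parental RT4, so its fall in RT112 is a lower limit and the size of its difference between the lines is not settled. PLA2G4A lay close to them in RT112 R1 +PD, so its fall there and its difference between the lines are lower limits in size. ANO6, a lipid scramblase named here after its values were seen, rose by 1.18 in RT112 and in RT4 differed by -0.12 without passing, a difference of 1.30 (adjusted p = 0.00473) that was lost without 8 of the 12 arrays (up to 0.0153), with the replicate block (0.0110) and by the t-test (0.0162). The causes were not tested.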

How the results depend on the processing

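Of the 28 calls of the 9 tested annexins, 24 were kept in 1 fit over all arrays of the cell line (17 others gained), 28 with dim genes left out (2 gained), 23 after quantile normalization again (4 gained), 23 after centring each array on its median, 22 with a trended and robust prior, 20 with every transcript cluster tested, 17 with the replicate block (1 gained), 6 by the methods' t-test, and 12 on leaving out any 1 array in turn. None changed direction. Why a setting changed a count was not tested. The share of all genes called is not given for these settings, except for the t-test. Nothing is therefore read from these counts, nor from those of the partners under other settings or without single arrays.

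With 1 fit over all arrays of the cell line the count of calls became 3 after 24 h, 5 in R1 +PD, 2 in R3 +PD, 4 in R2 +PD against R2 -PD, 3 in R1 +PD and 2 in R2 +PD against R3 +PD, 6 in RT4 R1 +PD and 2 in RT4 R1 -PD, and the difference between the lines was called for ANXA1 (-2.30, adjusted p = 3.11e-04) in place of ANXA3. In R2 +PD against R2 -PD it was 1 with every cluster, the trended prior, quantile normalization, centring or the replicate block. In RT4 R1 -PD it was 0 with every cluster, the trended prior, quantile normalization or the block. In RT4 R1 +PD against R1 -PD it was 1 with every cluster, the trended prior or centring. The difference between the lines had 0 with every cluster, quantile normalization or the block, and R2 -PD against parental cells 1 (ANXA11) with quantile normalization or the block. The block gave 1 in R1 +PD, 0 in R1 +PD against R1 -PD and 1 in RT4 R1 +PD. The replicate numbers pair the arrays by the correlation of deviations only in R3 -PD against parental cells (0.38, 0.28 and 0.11), where the block changed no annexin call and lost that of PLAT (1.60, adjusted p from 0.00338 to 0.0116). The methods' t-test, which the study names for single genes and signatures beside limma for lists of genes, gave 3 after 24 h, 1 in R1 +PD, 2 in R2 +PD and 0 in the other 14 comparisons, where it called 0 to 1549 of all genes (1 to 64 for R1, R2 and R3 -PD against parental cells, 15 and 1 for R1 and R2 +PD against R3 +PD). Leaving out 1 array gave 4 to 5 calls after 24 h, 1 to 5 in R1 +PD, 3 to 4 in R2 +PD, 0 to 2 in R3 +PD, 0 to 1 in R3 -PD, 0 to 2 in R1 +PD against R1 -PD, 0 to 3 in R2 +PD against R2 -PD, 0 to 1 in R2 +PD against R3 +PD, 1 to 5 in RT4 R1 +PD, 0 to 2 in RT4 R1 -PD, 1 to 2 in RT4 R1 +PD against R1 -PD, 2 to 4 between the parental lines and 0 to 1 for the difference between the lines. ANXA10 stayed within 1 SD of its reported differences after quantile normalization and centring, and on leaving out 1 array its difference from parental cells was -5.24 to -5.07 after 24 h, -8.94 to -8.77 in R1 +PD, -8.97 to -8.62 in R2 +PD, -1.73 to -0.88 in R3 +PD and -3.9 to -3.39 in RT4 R1 +PD. The same alternatives were run for the partner genes after seeing the data. No difference that was called in either setting changed direction, and differences called in neither were not checked for it. Against parental cells the count of partners called fell in R1 +PD from 7 to 3 with the block or the t-test, in R2 +PD from 9 to 3 with the t-test, in R3 +PD from 3 to 0 with the block or the t-test and to 1 with every cluster or the trended prior, in RT4 R1 +PD from 2 to 1 with the block or the t-test, and after 24 h from 5 to 2 with the t-test. The t-test called fewer of all genes too, 2284 after 24 h, 547 in R1 +PD, 677 in R2 +PD, 3 in R3 +PD and 90 in RT4 R1 +PD. Signals near the array medians limit what ANXA6, FPR3, S100A4, PLA2G4A in R1 +PD, and ANXA10, DHRS9 and MYEOV in R1 and R2 +PD can show, as they do for DHRS9 and MYEOV in RT4.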
